A study of Saccharomyces cerevisiae with 12 samples.

Results

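GCN4, GCN2, PCL5, ASN1 and ASN2 are 5 genes of the yeast general amino acid control, the response that raises amino acid synthesis when amino acids run short. They were chosen by name as the activator of the response, the kinase that induces it, a cyclin that limits it and the paralogous pair of asparagine synthetases. All 5 of the 5935 genes in the deposited table were found by their systematic names, and all 5 were among the 5820 genes that passed a filter on low values and were tested. RNA was sequenced from 12 libraries of Saccharomyces cerevisiae, in 4 strains of 3 cultures each, which the labels call independent biological replicates. The strains lack subunits of SWI/SNF, a chromatin remodelling complex, and the series addresses the part of Snf5 in that complex and in transcription.

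All strains were BY4741, mating type a, with the his3delta_1, leu2delta_0, met15delta_0 and ura3delta_0 alleles, grown at 30 °C to an OD600 of 0.75 to 1.0 (log phase). The wild type carried a FLAG tag linked to LEU2 on Snf2 and is called wild type as in its label. The swp82, snf2 and snf5 deletion strains each had the named gene replaced by kanMX4 and, per the labels, carried the LEU2-linked tag on Snf6 instead. The position of the tag therefore goes with every comparison of a deletion with the wild type and cannot be told apart from the deletion there. The labels do not say whether a strain was 1 clone, and the medium is not given in the sources used here.

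Gcn4 is a transcription factor that binds upstream of amino acid synthesis genes in many pathways. Its amount is set mostly by translation: when uncharged tRNA accumulates, the kinase Gcn2 phosphorylates the initiation factor eIF2, and ribosomes then pass the short reading frames in the GCN4 leader and reach the coding sequence. The cyclin Pcl5, whose gene is itself a Gcn4 target, directs the kinase Pho85 to Gcn4 and marks it for degradation. Gcn4 is known to recruit SWI/SNF to promoters of its targets. RNA levels, the quantity measured here, do not report the amount of Gcn4 protein.

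Values are scaled CPM, the reads of a gene relative to the library total and to the authors' scaling factor for that library. The libraries held 9012746 to 12875057 reads, and no member had fewer than 586 reads in any library, which gives a counting error of 0.856% to 1.76% of the value for GCN4, ASN1 and ASN2, 1.87% to 3.64% for PCL5 and 3.43% to 4.13% for GCN2. For GCN2 this is as large as much of the spread between cultures (SDs of 0.316% to 6.68% of the mean within a strain). In its own deletion SWP82 had 0 reads, at least 544-fold lower than in the wild type when 3 reads over the 3 libraries are taken as the floor. SNF5 and SNF2 had means of 0.0611 and 0.649 in theirs against 99.4 and 97.6 in the wild type. No LEU2 read was found in the swp82 deletion (at least 511-fold lower) or the snf2 deletion (at least 640-fold lower), which goes against the labelled marker, while the snf5 deletion libraries lay between 56.95 and 88.5. LEU2 status thus goes with some comparisons below and not with others. HIS3 lay between 63.6 and 138.5 in all libraries. All 5 markers of a cells and all 4 markers of alpha cells had reads in every strain. The summed a-cell level was 3150 to 3420 in the wild type, 3430 to 4190 in the swp82, 1920 to 2070 in the snf2 and 1730 to 1800 in the snf5 deletion, and the summed alpha-cell level was 77.3 to 95.2 over all libraries. Most of the alpha-cell sum was SAG1 (71.7 to 81.3), while STE3, the a-factor receptor gene, had means of 1.56 in the wild type, 2.93 in the swp82, 9.50 in the snf2 and 12.7 in the snf5 deletion, and both alpha-factor genes had strain means of at most 2.61. The part of these markers in the results was not tested. Replicates 1 and 3 of the snf5 deletion were the least alike of any pair within a strain (correlation of log2 values of 0.975). Replicate 2 correlated at 0.99 with replicate 1 and at 0.993 with replicate 3. Of all genes tested, 40.7% were highest in replicate 1 and 40.3% in replicate 3, so these values do not single out replicate 3. The main results on that strain are given with and without replicate 3. The values describe whole cultures: a change in every cell and a change in some of the cells cannot be told apart.

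Levels of different genes are set side by side per kilobase of coding sequence. This takes reads as counted over coding bases only, and how they were counted is not given in the sources used here. A ± after a level is the SD, and a ± after a log2 fold change or difference is its limma standard error (SE). Per kilobase, GCN4 was the highest of the 5 in the wild type at 1249 ± 55.2 scaled CPM per kb (mean ± SD, n = 3, as for all levels). ASN2 and ASN1 followed at 612 ± 16.2 and 572 ± 24.1, then PCL5 at 189 ± 16, and GCN2 was lowest at 13.5 ± 0.0428. GCN2 was the lowest in all 4 strains. In the snf2 deletion ASN1 dropped to 172 ± 15.7 per kb while ASN2 stood at 455 ± 7.86.

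**Figure D1:**
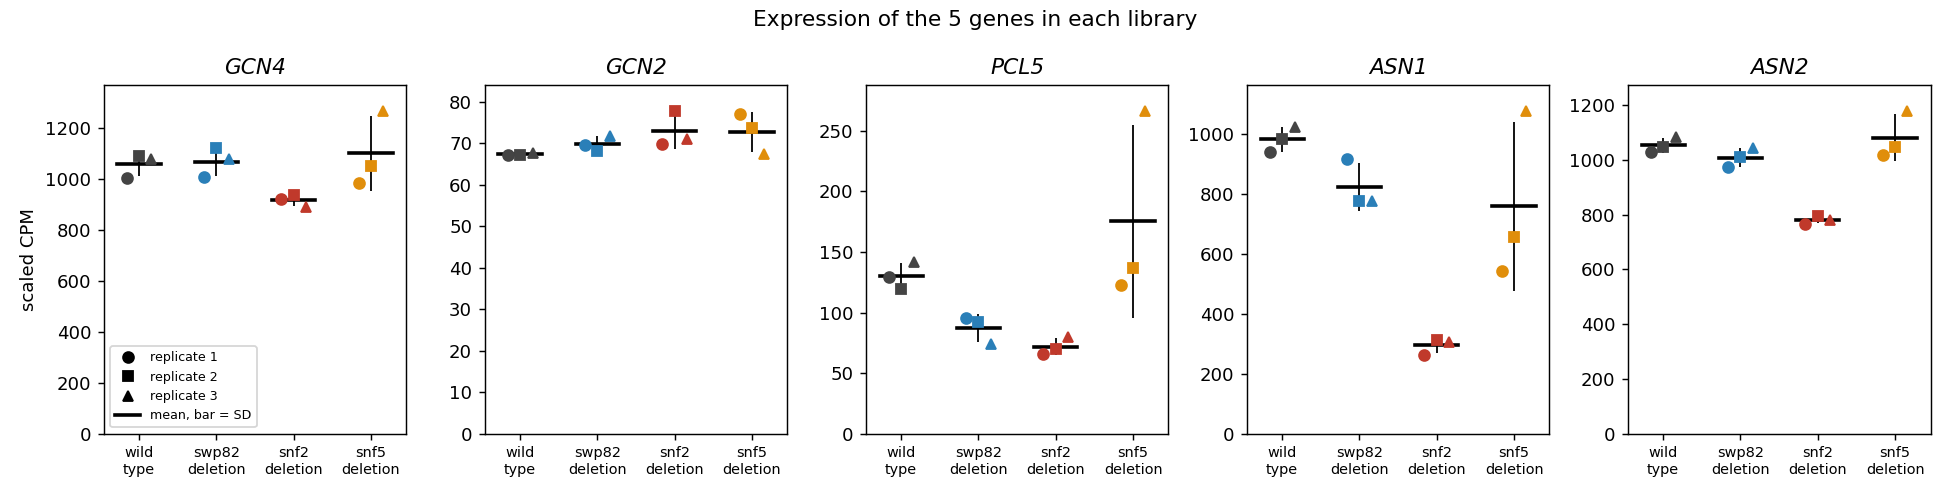
Scaled CPM of each gene (vertical axis, from 0) in each library, by strain; circles, squares and triangles are replicates 1, 2 and 3, thick lines are means and thin bars are SDs. ASN1 lies at 264 to 313 in the 3 snf2 deletion libraries, below every other library, and the triangles of the snf5 deletion stand above its other replicates for PCL5 and ASN1.

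ASN1 (YPR145W, chromosome XVI, 822620 to 824338 in R64, plus strand) encodes an asparagine synthetase, which makes asparagine from aspartate and glutamine. Its scaled CPM was 940, 985 and 1023 in the wild type, 918, 776 and 778 in the swp82 deletion, 264, 313 and 308 in the snf2 deletion, and 543, 656 and 1078 in the snf5 deletion. The snf2 deletion libraries were all low, and none overlapped a library of another strain. ASN1 fell 3.33-fold there against the wild type (log2 fold change -1.74 ± 0.20 (SE), limma adjusted p = 7.61e-05). It was also lower in the snf2 than in the swp82 deletion (-1.48 ± 0.20, adjusted p = 0.000164), a comparison in which both strains lack LEU2 reads and are labelled with the tag on Snf6. Replicates 1 and 2 of the snf5 deletion lay below every swp82 deletion and wild-type library, and replicate 3 lay above them all. The difference between the snf5 deletion and the wild type did not pass the test (-0.43, 95% interval -0.86 to -0.0024 before adjustment, adjusted p = 0.124). Without replicate 3 of the snf5 deletion it did, at -0.72 (adjusted p = 0.000641), and without that library ASN1 was also called lower in the snf5 than in the swp82 deletion (-0.46, adjusted p = 0.00533, against -0.18 and 0.490 with it). Both calls depend on which library is left out. With each library left out in turn, the difference from the wild type ran from -0.72 to -0.22 (limma adjusted p of 0.000641 to 0.377). The difference from the swp82 deletion ran from -0.46 to 0.03 (limma adjusted p of 0.00533 to 0.89). ASN1 was higher in the snf5 than in the snf2 deletion by 1.30 ± 0.20 (adjusted p = 0.00287), or by 1.02 without snf5 deletion replicate 3. By mean level the order was wild type (983), swp82 (824), snf5 (759) and snf2 deletion (295), and only the last step in this order passed the test.

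ASN2 (YGR124W, chromosome VII, 739944 to 741662, plus strand) encodes the other asparagine synthetase. Its scaled CPM was 1030, 1045 and 1084 in the wild type, 973, 1009 and 1042 in the swp82 deletion, 768, 795 and 782 in the snf2 deletion, and 1018, 1047 and 1179 in the snf5 deletion. The snf2 deletion libraries were again all below those of the other strains, by a smaller margin. ASN2 fell there by 0.43 ± 0.06 on the log2 scale against the wild type (1.35-fold, limma adjusted p = 0.000336). It was lower than in the swp82 deletion by a log2 difference of -0.37 ± 0.06 (adjusted p = 0.000639), or -0.15 (adjusted p = 0.0228) with total-count scaling, under which the median of all genes in this comparison was 0.215. In the snf5 deletion ASN2 was higher than in the snf2 deletion by 0.47 ± 0.06 (adjusted p = 0.00115), or by 0.40 without replicate 3 of the snf5 deletion (adjusted p = 0.00122). It did not differ beyond the spread from the wild type in the snf5 deletion (0.04, interval -0.09 to 0.17, adjusted p = 0.696) or in the swp82 deletion (-0.06, interval -0.19 to 0.07, adjusted p = 0.505).

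The paralogs thus moved by unequal amounts, and their ratio within a library, which no scaling factor touches, shows this directly. ASN1 over ASN2 was 0.913, 0.943 and 0.944 in the wild type and 0.344, 0.394 and 0.394 in the snf2 deletion. In the swp82 deletion the ratios were 0.944, 0.769 and 0.746, and in the snf5 deletion 0.534, 0.627 and 0.915. The snf2 deletion ratios lay below those of every other strain, while the snf5 deletion ratios were low in replicates 1 and 2 and within the wild-type range in replicate 3. The log2 ratio differed between the snf2 deletion and the wild type by -1.31 (two-sided exact permutation p = 0.1, the smallest that 3 against 3 libraries can give; adjusted p = 0.171 over 24 ratio comparisons), with all 3 libraries of the deletion below all 3 of the wild type. For the snf5 deletion against the wild type the difference was -0.47 (exact permutation p = 0.2).

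**Figure D2:**
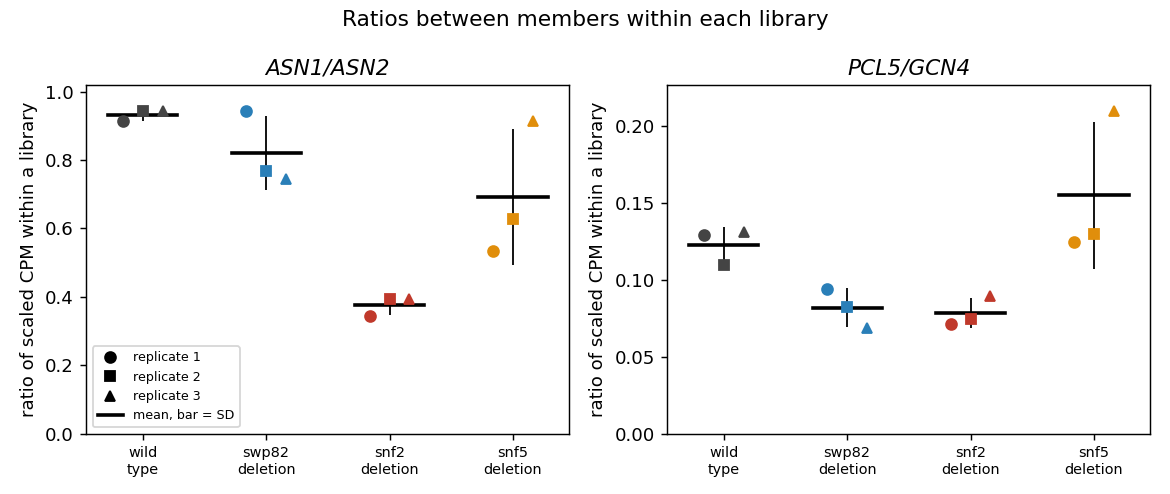
Ratio of scaled CPM within each library (vertical axes, from 0) for ASN1 over ASN2 (left) and PCL5 over GCN4 (right), by strain; symbols are replicates 1 to 3, thick lines means, thin bars SDs. The ASN1 to ASN2 ratio is 0.344 to 0.394 in the snf2 deletion and 0.913 to 0.944 in the wild type.

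Because reads from near-identical copies can be assigned to the wrong gene, the coding sequences of the pair were compared in R64. They are 1719 bases each and 81.2% identical over 1716 aligned bases. Of the 1670 windows of 50 bases in ASN1, 34 (2.04%) also occur in ASN2, and of the windows of 100 bases, 0 do. The stretch around the longest shared run is shown because reads that lie wholly inside that run, 83 bases in lower case, cannot be told apart; capitals mark the 8 differing bases, which flank it.
ASN1 coding bases 925 to 1067, chrXVI:823544-823686, plus strand: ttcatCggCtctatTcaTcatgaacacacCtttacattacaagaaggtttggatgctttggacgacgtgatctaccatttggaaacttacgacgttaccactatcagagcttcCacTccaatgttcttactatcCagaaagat
ASN2 coding bases 922 to 1064, chrVII:740865-741007, plus strand: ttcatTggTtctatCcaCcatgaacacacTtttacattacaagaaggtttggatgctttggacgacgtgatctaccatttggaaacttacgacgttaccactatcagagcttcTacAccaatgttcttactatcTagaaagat
How the authors' counting treated reads that fit both copies is not given in the sources used here.

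Upstream, both synthetase genes hold the letters TGACTCA, the sequence Gcn4 is known to bind. The search covered 500 bases before the start codon on both strands, for TGACTC and for TGACTCA, which contains it. Each gene has 1 match to TGACTCA, at bases -227 to -221 of ASN1 and -197 to -191 of ASN2 counted back from the start codon. The stretch from -300 to -151 is shown for each with the match in capitals, since these are the 2 members whose windows hold it and they differ in how far they fell.
ASN1 upstream, chrXVI:822320-822469, plus strand: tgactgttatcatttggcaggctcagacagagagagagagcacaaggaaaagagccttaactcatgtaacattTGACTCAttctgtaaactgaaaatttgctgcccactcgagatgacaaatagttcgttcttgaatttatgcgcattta
ASN2 upstream, chrVII:739644-739793, plus strand: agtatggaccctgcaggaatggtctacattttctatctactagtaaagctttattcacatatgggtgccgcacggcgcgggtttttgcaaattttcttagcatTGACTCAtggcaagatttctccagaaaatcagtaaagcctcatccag
TGACTCA was in 4.08% of 5682 such windows of the genes in the table and TGACTC in 12.8%. The windows of GCN4, GCN2 and PCL5 held neither.

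PCL5 (YHR071W, chromosome VIII, 237004 to 237693, plus strand) encodes the Pho85 cyclin that promotes Gcn4 turnover. Its scaled CPM was 129, 120 and 142 in the wild type, 95.3, 92.4 and 74.1 in the swp82 deletion, 65.8, 69.9 and 79.6 in the snf2 deletion, and 123, 137 and 267 in the snf5 deletion. The swp82 and snf2 deletion libraries all lay below the wild type, and replicate 3 of the snf5 deletion lay above every other library. PCL5 fell 1.80-fold in the snf2 deletion against the wild type (log2 fold change -0.85 ± 0.23, limma adjusted p = 0.0197). The call was lost without wild-type replicate 3 (adjusted p = 0.0707), snf2 deletion replicate 1 (0.0688) or snf2 deletion replicate 2 (0.0574). The swp82 deletion stood at a log2 fold change of -0.58 ± 0.23 against the wild type, which did not pass (adjusted p = 0.166). The snf5 deletion did not pass either (0.34, interval -0.17 to 0.86, adjusted p = 0.312), and without its replicate 3 the difference was -0.0045.

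Between deletions, PCL5 was higher in the snf5 than in the snf2 deletion by 1.19 ± 0.23 (limma adjusted p = 0.00914), or 0.85 without snf5 deletion replicate 3. It was higher in the snf5 than in the swp82 deletion by 0.92 ± 0.23 (adjusted p = 0.00987), or 0.57 without that library (adjusted p = 0.00333). Both calls were lost when only the 2 strains compared were fitted (adjusted p = 0.0688 and 0.0628). By mean level the order was snf5 deletion (175), wild type (130), swp82 (87.3) and snf2 deletion (71.8), and no neighbouring pair in it passed the test. PCL5 and ASN1 were the members with the widest spread between replicates: their SDs within strains on the log2 scale were 0.330 and 0.275, larger than those of 94.4% and 89.8% of genes. With the snf5 deletion strain set aside these were 0.155 and 0.117, larger than those of 76.2% and 62.2%.

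GCN4 (YEL009C, chromosome V, 138918 to 139763, minus strand), the activator's own gene, varied little. Its scaled CPM was 1003, 1089 and 1079 in the wild type, 1009, 1120 and 1076 in the swp82 deletion, 922, 935 and 891 in the snf2 deletion, and 983, 1050 and 1267 in the snf5 deletion. The snf2 deletion libraries were the lowest and did not overlap any other strain. The difference from the wild type did not pass the test over all 4 strains (-0.21 ± 0.08, interval -0.39 to -0.02, limma adjusted p = 0.0960). It passed when only the 2 strains were fitted (adjusted p = 0.00998). With total-count scaling, under which the median of all genes was 0.134, it was -0.06. In the snf5 and swp82 deletions GCN4 stood at log2 fold changes of 0.05 (interval -0.14 to 0.24, adjusted p = 0.701) and 0.02 (interval -0.17 to 0.20, adjusted p = 0.925). The snf5 and snf2 deletions differed by 0.26 ± 0.08 (adjusted p = 0.0753), a difference that DESeq2 called (adjusted p = 0.0269). The snf2 and swp82 deletions differed by -0.22 ± 0.08 (adjusted p = 0.0548), which DESeq2 also called (adjusted p = 0.0371) and which was -0.0014 with total-count scaling.

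PCL5 per GCN4 within a library was 0.129, 0.110 and 0.131 in the wild type, 0.0944, 0.0825 and 0.0688 in the swp82 deletion, 0.0714, 0.0748 and 0.0893 in the snf2 deletion, and 0.125, 0.130 and 0.210 in the snf5 deletion. The swp82 and snf2 deletion ratios lay below the wild type without overlap (log2 differences of -0.60 and -0.65; two-sided exact permutation p = 0.1 for each, the smallest possible, adjusted p = 0.171). Those 2 strains share the absence of LEU2 reads, and the part of LEU2 status in this ratio was not tested. Between them the log2 difference was -0.06 (exact permutation p = 0.8).

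GCN2 (YDR283C, chromosome IV, 1025070 to 1030049, minus strand), the eIF2 kinase, had scaled CPM of 67.1, 67.2 and 67.5 in the wild type, 69.7, 68.0 and 71.7 in the swp82 deletion, 69.8, 77.8 and 71.0 in the snf2 deletion, and 77.1, 73.5 and 67.5 in the snf5 deletion. All values lay within a narrow band, with the 3 wild-type libraries at its lower end. Log2 fold changes against the wild type were 0.11 ± 0.06 in both the snf5 and the snf2 deletion (limma adjusted p = 0.216 and 0.203) and 0.05 ± 0.06 in the swp82 deletion (adjusted p = 0.606). Its value in the snf5 deletion without replicate 3 was 0.16 (adjusted p = 0.0631). With total-count scaling the values for the snf5 and snf2 deletions were 0.20 and 0.25 and were called (adjusted p = 0.0492 and 0.0150), where the medians of all genes were 0.0751 and 0.134. GCN2 was the member that was not highest in replicate 3 of the snf5 deletion, where the other 4 were.

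**Figure D3:**
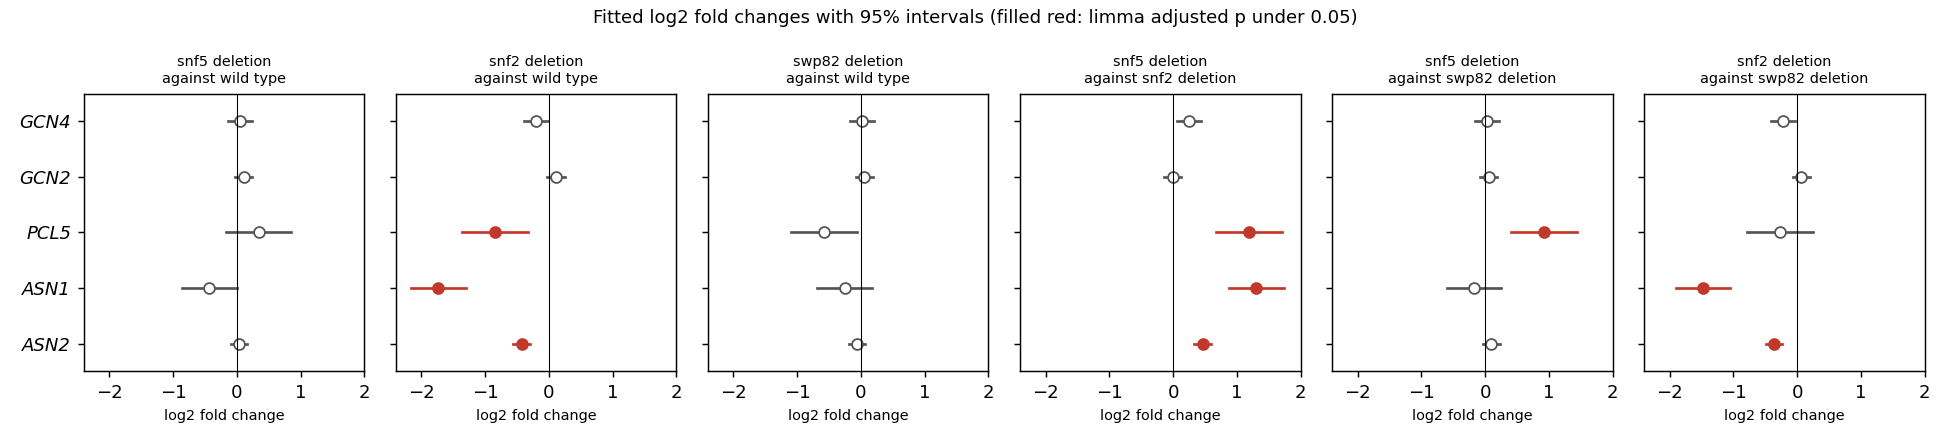
Fitted log2 fold change (horizontal axes) of each member in the 6 comparisons between strains, with 95% intervals before adjustment; filled red points passed at a limma adjusted p under 0.05 over all genes tested. PCL5, ASN1 and ASN2 passed in the second panel (snf2 deletion, wild type) and in the fourth (snf5 deletion, snf2 deletion), and no member passed in the first or the third.

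Counted over the 5 members, 3 were called lower in the snf2 deletion against the wild type (PCL5, ASN1 and ASN2), where 14.1% of all genes tested were called lower and 27.7% in either direction. In the snf5 deletion limma called 0 of 5, where 29.3% of all genes were called in either direction, and edgeR and DESeq2 each called 0. Before adjustment 1 member, ASN1, had a limma p under 0.05 there (0.049), which was number 2294 from the smallest of all 5820 genes. The swp82 deletion also had 0 of 5 called by limma against 3.49% of all genes, and neither edgeR nor DESeq2 called any (0 each). Before adjustment 1 member, PCL5, had a limma p under 0.05 there (0.0316), which was number 1105. Between the snf5 and snf2 deletions 3 of 5 were called higher in the former (5.79% of all genes, and 12.5% in either direction). Between the snf5 and swp82 deletions 1 of 5 was called higher (20.4% of all genes, and 41.9% in either direction), and between the snf2 and swp82 deletions 2 of 5 were called lower (21.8% of all genes, and 43.5% in either direction). The comparisons with the wild type share its 3 libraries. The authors' deposited table of filtered genes, 506 in all, held ASN1 and none of the other 4 members. Its name gives a 2-fold cutoff, which a call here does not have. In the snf2 deletion against the wild type ASN2 (1.35-fold) and PCL5 (1.8-fold) lay under that cutoff. Their absence from the list therefore does not contradict those calls. PCL5 was 2.28-fold higher in the snf5 than in the snf2 deletion, and the name does not say which comparisons were filtered.

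Few genes of the machinery that acts on Gcn4 passed the test against the wild type. Of 11 genes of Gcn2 activation, eIF2 and its exchange factor eIF2B, 1 was called lower and 0 higher in the snf5 deletion (median log2 fold change -0.12), where 14.5% of all genes were called lower, 14.8% higher, and the median of all genes was -0.0127. The called gene was GCD1, the eIF2B gamma subunit (-0.30 ± 0.07, limma adjusted p = 0.00944). Without replicate 3 of the snf5 deletion GCD1 was at -0.34 (limma adjusted p = 0.00669). GCN3, named here after its value was seen, was then also called (-0.20, limma adjusted p = 0.0470). That made 2 of 11 lower, where 16.7% of all genes were called lower. In the snf2 deletion GCN3, the eIF2B alpha subunit, was called lower (-0.30 ± 0.07, adjusted p = 0.00681), again 1 of 11 with 0 higher (median -0.13; all genes 14.1% lower and 13.6% higher, median -0.00395). In the swp82 deletion GCD1 was called higher (0.30 ± 0.07, limma adjusted p = 0.0462), 1 of 11 with 0 lower. The median was 0.20, against 0.00226 for all genes, of which 1.41% were called higher and 2.08% lower. The log2 fold changes of the 11 ran from 0.087 to 0.298 there. Before adjustment 6 of them had a limma p under 0.05, against 3 in the snf5 and 2 in the snf2 deletion. Many of all 5820 genes did too. Ranked from the smallest limma p, 0.0316 was number 1105 in the swp82 deletion. A p of 0.049 was number 2294 in the snf5 deletion, and 0.0339 was number 2054 in the snf2 deletion. Between the snf5 and snf2 deletions 0 of 11 were called by limma, edgeR or DESeq2, with 3 at a limma p under 0.05 before adjustment. In that comparison a limma p of 0.0118 was number 909 of all 5820 genes. Against the swp82 deletion, 6 of the 11 were called lower in the snf5 deletion (median -0.24; 21.5% of all genes) and 8 in the snf2 deletion (median -0.31; 21.8%), with 0 higher in either. The 6 became 9 without replicate 3 of the snf5 deletion, where 27.0% of all genes were called lower. GCD1 stood at -0.59 ± 0.07 and -0.41 ± 0.07 there (adjusted p = 9.11e-05 and 0.000986).

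Of 9 genes of Gcn4 turnover and coactivators, SKP1, a subunit of the SCF ubiquitin ligase, was the 1 that limma called between snf5 deletion and wild type (0.14 ± 0.05, adjusted p = 0.0474), where 29.3% of all genes were called in either direction. There edgeR called 0 of the 9, and without replicate 3 of the snf5 deletion limma did not call SKP1 (0.15, adjusted p = 0.0510). In the snf2 deletion, where limma called 27.7% of all genes, it called 0 of these 9, as did edgeR and DESeq2. Before adjustment 3 had a limma p under 0.05, where 0.0339 was number 2054 from the smallest of all 5820 genes. PHO85, the kinase itself, had the smallest p of the 9 (-0.24 ± 0.09, limma adjusted p = 0.0632). In the swp82 deletion (3.49% of all genes called by limma) limma and edgeR called 0 and DESeq2 called 1. Before adjustment 2 had a limma p under 0.05, where 0.0316 was number 1105 of all genes. The ubiquitin-conjugating enzyme gene CDC34 had the smallest p of the 9 there (0.21 ± 0.06, limma adjusted p = 0.0893).

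Among 9 other Pho85 cyclins, PCL7 was called higher in all 3 deletions, by 0.37, 0.47 and 0.28 in the snf5, snf2 and swp82 deletions (limma adjusted p = 0.000837, 0.000177 and 0.0310). PCL9 was called lower in the snf5 (-0.57 ± 0.12, adjusted p = 0.00451) and snf2 deletions (-0.66 ± 0.12, adjusted p = 0.00192). PHO80, the cyclin of phosphate signalling, was called higher in the swp82 deletion (0.31 ± 0.07, adjusted p = 0.0310). The remaining cyclins in each comparison, 7 of 9, did not pass the test; the 2 called stand beside 29.3%, 27.7% and 3.49% of all genes called in the snf5, snf2 and swp82 deletions. Without replicate 3 of the snf5 deletion 3 cyclins were called higher and 1 lower there (all genes 16.4% and 16.7%), with PCL7 at 0.34 and PCL9 at -0.55. List medians were 0.03, 0.004 and -0.07 in the snf5, snf2 and swp82 deletions.

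Of 12 further genes of asparagine and aspartate metabolism and uptake, 8 were measured in the table used here. AGP1, a permease for asparagine and glutamine among other amino acids, was called lower in all 3 deletions. Its scaled CPM was 100.5, 91.4 and 86.0 in the wild type, 76.9, 60.1 and 64.8 in the swp82 deletion, 28.02, 31.1 and 32.5 in the snf2 deletion, and 34.4, 35.0 and 40.9 in the snf5 deletion. Every deletion library lay below every wild-type library. The log2 fold changes were -0.46, -1.57 and -1.31 in the swp82, snf2 and snf5 deletions (limma adjusted p = 0.0376, 1.08e-06 and 4.28e-06). In the snf2 deletion DIP5, a permease for aspartate and glutamate, was also called lower (-0.93 ± 0.23, adjusted p = 0.0107), and AAT2, the cytosolic aspartate aminotransferase, was called higher (0.55 ± 0.07, adjusted p = 0.000159). That made 2 of 8 lower and 1 higher there, and 1 lower and 0 higher in each of the other deletions. Of all genes 14.1% were called lower in the snf2, 14.5% in the snf5 and 2.08% in the swp82 deletion. The shares called higher were 13.6%, 14.8% and 1.41% in the same order. With replicate 3 of the snf5 deletion left out, 2 of 8 were lower and 0 higher there (all genes 16.7% and 16.4%), AGP1 at -1.39 among the lower. Medians were -0.15, 0.04 and -0.01 in the snf2, snf5 and swp82 deletions. Between the snf2 and swp82 deletions 6 of the 8 were called lower and 1 higher in the former (all genes 21.8% and 21.7%). Between the snf5 and snf2 deletions 2 were higher and 1 lower in the snf5 deletion (5.79% and 6.68%). Against the swp82 deletion 1 was higher and 2 lower in the snf5 deletion (20.4% and 21.5%).

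The widest list was 42 amino acid synthesis genes known as Gcn4 targets, all of which were tested. Their upstream windows of 500 bases held TGACTCA in 61.9% of cases. In the snf5 deletion 14 were called higher and 4 lower (33.3% and 9.52%; all genes 14.8% and 14.5%), with a median of 0.17. ARG1, argininosuccinate synthetase of arginine synthesis, had scaled CPM of 222, 286 and 588 there against 74.3, 85.2 and 97.6 in the wild type (1.96 ± 0.30, limma adjusted p = 0.000617). ARG5,6, which encodes a precursor of further arginine synthesis enzymes, rose by 1.24 ± 0.19 (adjusted p = 0.000527), and LYS12, homoisocitrate dehydrogenase of lysine synthesis, fell by 0.38 ± 0.05 (adjusted p = 0.000322). Without replicate 3 of the snf5 deletion the counts were 12 higher and 6 lower (all genes 16.4% and 16.7%), and the median was 0.02. In that fit ARG1 and ARG5,6 stood at 1.55 and 0.97 (limma adjusted p = 0.000264 and 8.82e-05) and LYS12 at -0.41. Without replicate 1 the counts were 19 and 2, and the count of lower genes was also 2 without snf5 deletion replicate 2 or wild-type replicate 3. For these last fits the shares of all genes called are not given here.

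In the snf2 deletion 3 of the 42 were called higher and 10 lower (7.14% and 23.8%; all genes 13.6% and 14.1%), with a median of -0.18. ARO1, the multifunctional enzyme of the shikimate pathway, fell by 0.85 ± 0.07 (limma adjusted p = 7.37e-06), LYS12 by 0.52 ± 0.05 (adjusted p = 3.35e-05) and LYS9, saccharopine reductase, by 0.50 ± 0.06 (adjusted p = 0.000158). Total-count scaling gave 10 higher and 8 lower, where 1837 of all 5820 genes were called higher and 468 lower. A fit of only the 2 strains gave 7 and 22. The share of all genes called in that fit is not given here, so a general change in calls cannot be told from a change in this list. Between the snf5 and snf2 deletions 22 of 42 were called higher in the snf5 deletion and 0 lower (median 0.35), where 5.79% and 6.68% of all genes were called higher and lower. These counts were 19 and 2 without replicate 3 of the snf5 deletion, where 4.31% and 5.24% of all genes were called. Against the swp82 deletion 19 were called higher and 5 lower in the snf5 deletion (median 0.25, all genes 20.4% and 21.5%). Without that library these counts were 19 and 12 (all genes 25.1% and 27%). In the snf2 deletion 8 were higher and 15 lower than in the swp82 deletion (median -0.09; all genes 21.7% and 21.8%).

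In the swp82 deletion 3 of the 42 were called higher and 3 lower (7.14% each; all genes 1.41% and 2.08%), with a median of -0.10. ARG1 had scaled CPM of 23.7, 17.8 and 18.2 there (-2.06 ± 0.30, limma adjusted p = 0.00461), below every other library. BAT1, the mitochondrial branched-chain aminotransferase, rose by 1.27 ± 0.16 (adjusted p = 0.00215) and HOM6, homoserine dehydrogenase, by 0.21 ± 0.04 (adjusted p = 0.0251). The counts were 5 higher and 7 lower with the replicate number as a block. With total-count scaling they were 2 and 9, where 49 of all genes were called higher and 268 lower. The counts for the 42 were 3 and 6 without swp82 deletion replicate 1, and 1 and 1 when any other of the 6 libraries compared was left out. For the block and for the fits with a library left out, the shares of all genes called are not given here.

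Within the snf5 deletion the 3 cultures differed in this list in 1 direction. Of the 42 genes, 40 were highest in replicate 3 (95.2%), where 40.3% of all genes tested were, and 36 were lowest in replicate 1, as were 2364 of all 5820 genes. Relative to the wild-type mean, the median log2 value of the 42 genes was -0.07, 0.11 and 0.42 in replicates 1, 2 and 3, while the median of all genes was at most 0.0084 from 0. In the other strains the medians of the 3 libraries spanned -0.05 to 0.06 (wild type), -0.12 to -0.04 (swp82 deletion) and -0.22 to -0.15 (snf2 deletion). They also rose from replicate 1 to replicate 3 in the wild type and the swp82 deletion, over these narrower spans. In the wild type 32 of the 42 genes were lowest in replicate 1 and 29 highest in replicate 3. Of all 5820 genes, 2363 and 1960 were. Of the 11 genes of Gcn2 activation, eIF2 and eIF2B, 10 were highest in replicate 3 of the snf5 deletion. These genes also went together in the other strains. There 10 of the 11 were highest in snf2 deletion replicate 2, 11 lowest in swp82 deletion replicate 1 and 10 lowest in wild-type replicate 1. Of all 5820 genes, 37.3% were highest in that snf2 deletion library. In the swp82 deletion and wild-type libraries just named, 2428 and 2363 of all genes were lowest. The depth of snf5 deletion replicate 3 was 10677939 reads, within the range of the other libraries, and its scaling factor was 1.01. The cause of the spread between these cultures was not tested.

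**Figure D4:**
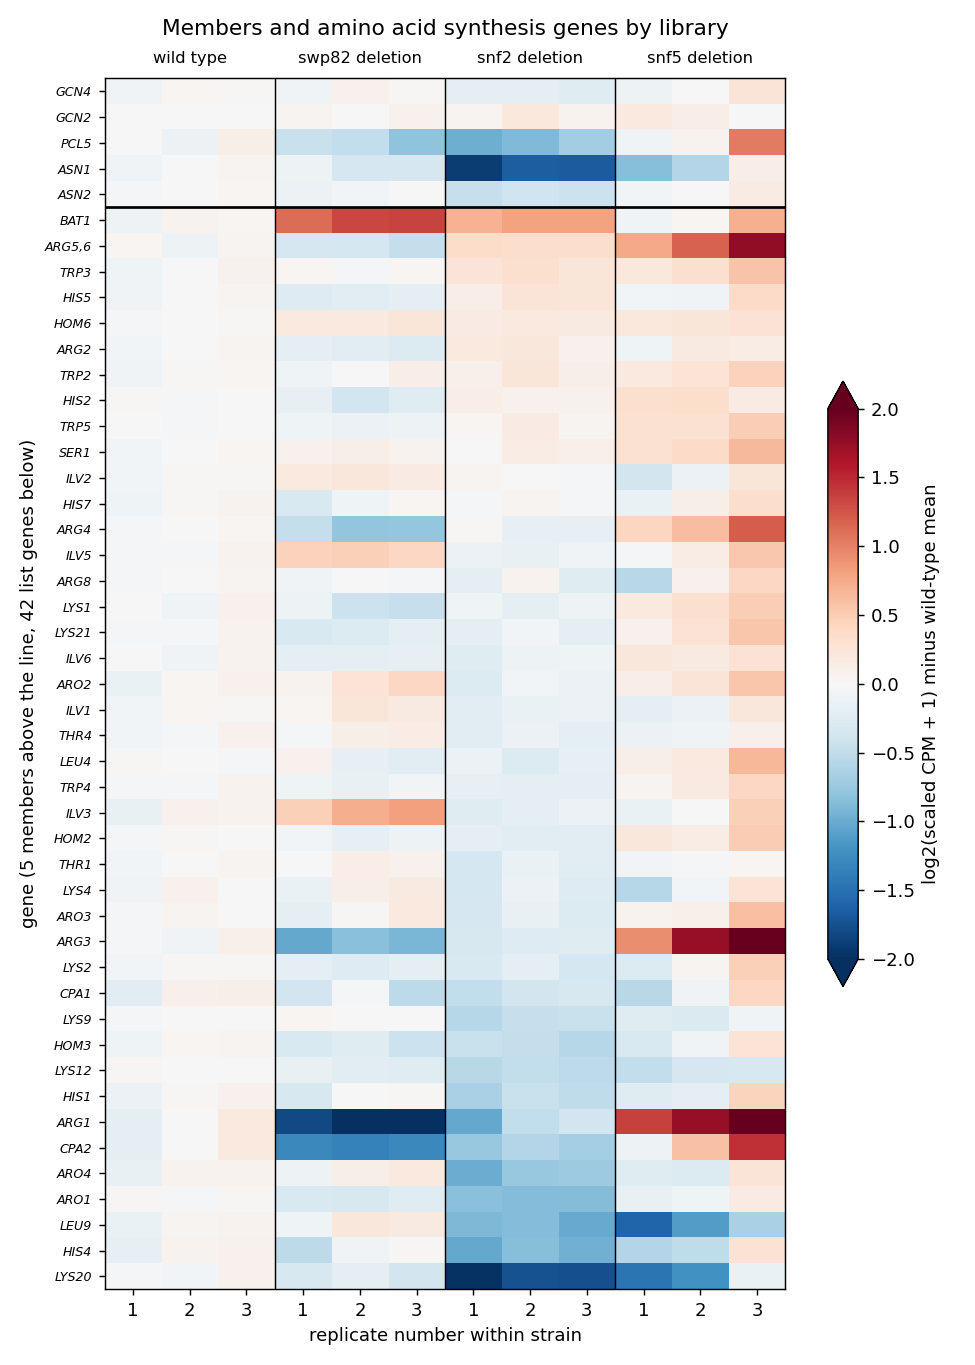
Log2(scaled CPM + 1) minus the wild-type mean (colour, from -2 in blue to 2 in red, with values beyond drawn at the ends) for the 5 members and the 42 amino acid synthesis genes in each library; the 42 are ordered by their mean in the snf2 deletion. In replicate 3 of the snf5 deletion 38 of the 42 genes lie above the wild-type mean, against 10 to 13 in the snf2 deletion libraries.

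The genes whose pattern over the 12 libraries was most like each member were taken by Pearson's r of log2 values, as a description. Libraries of 1 strain share that strain's differences, and the median r of a member with all genes was between -0.0143 and -0.0048. ASN2 was most like ARO1 (r = 0.974), followed by SNF2 itself (0.939, with a Spearman's rho of 0.552; SNF2 is near 0 in its own deletion) and VMA9, a subunit of the vacuolar proton pump (0.936). For ASN1 they were LYS20, homocitrate synthase (0.953), LYS9 (0.948) and SHM2, cytosolic serine hydroxymethyltransferase (0.947). GCN4 was nearest to HIS1, the first enzyme of histidine synthesis (0.952), then COS10 (0.947) and KRS1, lysyl-tRNA synthetase (0.941). PCL5 was nearest to GGC1, a mitochondrial GTP and GDP carrier (0.933), TRP4 of tryptophan synthesis (0.924) and HOM3, aspartate kinase (0.914). Without replicate 3 of the snf5 deletion, over 11 libraries, the values for PCL5 were 0.862, 0.832 and 0.868. For GCN2 the nearest were YIP1 (0.913), BUD13 (0.875) and POL31 (0.840), none of them a gene of the lists above. Among the members, ASN1 and ASN2 were the most alike (r = 0.929), while GCN2 had negative values with the other 4 (-0.58 to -0.37).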

How the data were processed

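RNA was measured in 12 libraries; strain and replicate number are those of the sample titles. TopHat2 2.0.10, Bowtie2 2.1.0, edgeR 3.8.6 and genome build sacCer3 appear in the submitters' processing notes. How reads were counted, whether by strand, and what became of reads that fit several places is not stated there. The authors deposited a normalised signal per gene, relative to the library total and a scaling factor, and a second table with group means of this signal for a filtered list. In every library 100% of the values were whole multiples of 1 read (tolerance 0.05 of a read), so reads were recovered, and TMM factors computed from them matched the deposited scaling (0.907 to 1.08).

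The main fit was limma 3.58.1 with a mean trend (R 4.3.3) on log2(value + 1), with all 12 libraries and strain as its term. Genes entered when at least 3 libraries reached a value of 1 (5820 kept, 115 removed). A call means a Benjamini-Hochberg adjusted p under 0.05, two-sided, over every gene tested. Fold changes on this scale understate those of low genes. Alternatives were edgeR 4.0.16 (quasi-likelihood) and DESeq2 1.42.0 on the recovered reads, other scalings, pseudocounts and filters, and each library left out. The code was tested on simulated data. Every replicate pair differed beyond sampling noise (chi-square over its degrees of freedom 2.99 to 80.3).

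Replicate numbers, which come from the titles, paired the libraries in 2 of 6 comparisons, where all 3 same-numbered pairs correlated above 0.1 in their deviations from the strain means. In the comparison of swp82 deletion and wild type these correlations were 0.255 to 0.599, and in that of snf5 and swp82 deletions 0.116 to 0.660. In each of the other comparisons 2 of the 3 pairs were above 0.1, and the lowest pair lay between -0.104 and 0.0541.

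Members and lists were chosen with earlier results of these data known. Genes named besides the 5 members are the deleted and marker genes, up to 3 called genes with the smallest p per list and comparison with the wild type (or the smallest p where none was called), and the 3 genes most like each member. Symbols, coordinates and sequences are from the RefSeq annotation and genome R64, the same sequence as sacCer3 (5685 identifiers matched, 250 did not). No annotated gene overlaps a member. Floors cover counting error only.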

Additional observations from a re-analysis of the deposited data

How the results depend on the processing

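Of 510 alternatives to the 30 member results, 470 kept direction and side of the threshold, and 9 results did so in every one, among them ASN1 and ASN2 in the snf2 deletion against the wild type. Leaving out 1 library at a time gave these ranges of log2 fold changes. In the snf5 deletion against the wild type they were -0.0556 to 0.127 (GCN4), -0.0045 to 0.55 (PCL5), -0.72 to -0.22 (ASN1) and -0.0281 to 0.0781 (ASN2), and the 7 listed genes called lower became 5 to 11. PCL5 in the snf2 deletion against the wild type ranged from -0.93 to -0.79. For GCN4, swp82 deletion and wild type differed by -0.0216 to 0.0559, and the 6 listed genes called higher and 4 lower became 1 to 8 and 1 to 7. Between the snf5 and snf2 deletions the ranges were 0.15 to 0.33 (GCN4) and -0.0464 to 0.0484 (GCN2), between the snf5 and swp82 deletions -0.0710 to 0.112 (GCN4) and -0.459 to 0.0348 (ASN1), and between the snf2 and swp82 deletions -0.26 to -0.19 (GCN4).

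Total-count scaling brought GCN2 past the threshold in the snf5 (0.20) and snf2 deletions (0.25) against the wild type and in the snf5 (0.22) and snf2 deletions (0.28) against the swp82 deletion, and likewise GCN4 (0.20) and ASN2 (0.27) between the snf5 and swp82 deletions. For the swp82 deletion and the wild type it reversed GCN4 (-0.0613) and GCN2 (-0.0242). Of all listed genes it called 15 higher in the snf2 deletion, where the count was 5, and 2 higher and 10 lower in the swp82 deletion. Of all genes tested it called 1837 higher in the snf2 deletion, where the count was 792, and 49 higher and 268 lower in the swp82 deletion. Upper-quartile factors gave 8 listed genes higher in the snf2 deletion, where 997 of all genes were. They put GCN4 at -0.0095 for the swp82 deletion and the wild type. They also called GCN4 between the snf5 and snf2 deletions (0.24) and ASN2 between the snf5 and swp82 deletions (0.15). Median-of-ratios factors called GCN4 between the snf2 and swp82 deletions (-0.22) and put GCN2 between the snf5 and snf2 deletions at 0.0021. DESeq2 put that value at 0.0023, called GCN4 between the snf5 and snf2 (0.27) and the snf2 and swp82 deletions (-0.22), and called 8 listed genes lower in the swp82 deletion. Fitting only the 2 strains compared called, relative to the wild type, GCN4 (-0.21) for the snf2 and PCL5 (-0.58) for the swp82 deletion, called GCN4 between the snf2 and swp82 deletions (-0.22), and lost PCL5 between the snf5 and snf2 (1.19) and the snf5 and swp82 deletions (0.92). It called 12 listed genes higher and 32 lower in the snf2 deletion, where the counts were 5 and 14. With the replicate number as a block, GCN4 was called between the snf5 and snf2 (0.26, limma adjusted p = 0.0376) and the snf2 and swp82 deletions (-0.22, limma adjusted p = 0.0289). In both, 2 of the 3 same-numbered pairs correlated above 0.1 and 1 did not (-0.104 to 0.401 and 0.0541 to 0.415). With the block, 11 listed genes were called higher and 8 lower in the swp82 deletion. The block changed no other member's call. The counts of listed genes by DESeq2, by the fit of only the 2 strains and with the block stand here without counts of all genes. So do the ranges of these counts over libraries left out. A general change in calls therefore cannot be told from a change in the lists. The causes were not tested.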
